A study of Mus musculus with 6 samples.

Results

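Tight junctions and adherens junctions hold neighbouring epithelial cells together, and 10 of their genes were followed here by symbol in a deposited table of 17564 genes. They are 6 claudins (Cldn1, Cldn3, Cldn4, Cldn7, Cldn8 and Cldn12), occludin (Ocln), the scaffold ZO-1 (Tjp1), E-cadherin (Cdh1) and P-cadherin (Cdh3). All 10 had a row, and 9 passed the filter on low counts, Cldn7 being the exception. The samples were whole back skin of wild-type C57BL/6 mice, 8 weeks old, in 2 groups of 3, profiled by bulk RNA sequencing. Untreated skin was shaved and depilated and received nothing else, and the labels give no day of collection for it. Treated skin was also shaved and depilated, then received SspA (the V8 protease of staphylococci, 3 µg) and HDM (house dust mite, 10 µg) on its surface, again 3 days later, and was taken 7 days after the first application. The comparison asks how expression in skin differs after that exposure. Time since depilation and the handling at each application may also differ between the groups, and they cannot be told apart from SspA and HDM here.

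Claudins are membrane proteins whose extracellular loops meet those of the next cell and set which ions and solutes pass between cells. Occludin spans the membrane beside them, and ZO-1 ties them to actin from the inside. Adherens junctions lie below, where cadherins bind each other across the gap and hand force to actin through catenins. In the epidermis, tight junctions sit in the granular layer and form a barrier beneath the cornified layer. Cldn1 is needed for it, since mice that lack the protein die of water loss soon after birth.

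Values are scaled reads, that is, reads per gene divided by a factor per library that brings the libraries to like totals. Untreated replicate 2 was the shallowest library, with 4928245 recovered reads, and treated replicate 3 the deepest, with 7545567. Untreated replicates 1 and 3 and treated replicates 1 and 2 lay between 5580401 and 5821622 and are called the 4 libraries of like depth. Markers of the labelled tissue were present in every library: the 10 epidermal markers summed to between 16228 and 17489 scaled reads in untreated and between 13214 and 17527 in treated skin, with treated replicate 3 the lowest. Whole skin also holds other cells, and some of their markers differed between the groups. The 11 markers of inner root sheath and hair matrix summed to 835 to 869 scaled reads in untreated and 1469 to 5713 in treated skin, the 6 neutrophil markers to 202 to 341 and 778 to 2617, and the 8 sebaceous gland markers to 7225 to 7543 and 4799 to 5468. Of adipocyte markers 3 of 5 and of Schwann cell markers 2 of 4 were called lower, and of macrophage markers 1 of 6 higher. These calls are by limma at adjusted p under 0.05, which called 7.23% of all tested genes lower and 9.26% higher. Counts over so few markers are not read as results about the lists. Fibroblast and skeletal muscle markers gave 0 calls of 6 each by limma, with 1 and 6 lower at an unadjusted p under 0.05, 1 and 5 lower by DESeq2 and 1 and 0 by edgeR. Among all markers in these lists, Ly6g was the single one at 0 anywhere, in each untreated library. In bulk tissue, fewer cells of a type and less RNA per cell cannot be told apart. Nothing in the labels ties the samples to different animals, so each p-value reflects variation among these samples alone, possibly technical.

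Cldn3 fell about 5-fold, Cldn4 fell modestly and Cdh3 rose, while the other 6 tested genes did not pass the test. By limma on log2(scaled reads + 1) with adjustment over 15534 genes, 1 of the 9 tested junction genes was called higher and 2 were called lower at adjusted p under 0.05. Of all genes tested, 16.5% were called, 9.26% higher and 7.23% lower, and counts this small over 9 genes are not read as a result about the set. The edgeR and DESeq2 tests also called 1 junction gene higher and 2 lower, where edgeR called 15.8% of all genes (8.04% higher, 7.75% lower) and DESeq2 16.6% (8.03% and 8.6%). The median log2 fold change of the 9 genes was -0.13, beside 0.03 over all tested genes. Untreated and treated values were fully apart for 2 junction genes that were higher (Cdh3 and Cldn12) and 3 that were lower (Cldn1, Cldn3 and Cldn4), where 37.3% of all tested genes were apart, 21.7% and 15.6% in those directions. Centring each library on its epidermal markers called 8.06% of all genes (6.32% higher, 1.74% lower) and, of the junction genes, 1 higher and 1 lower. Removing the trend on reads per base called 16.0% (7.9% and 8.11%) and 1 higher and 1 lower junction gene, and the 4 libraries of like depth called 17.6% (8.73% and 8.91%) and 1 higher and 4 lower.

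**Figure D1:**
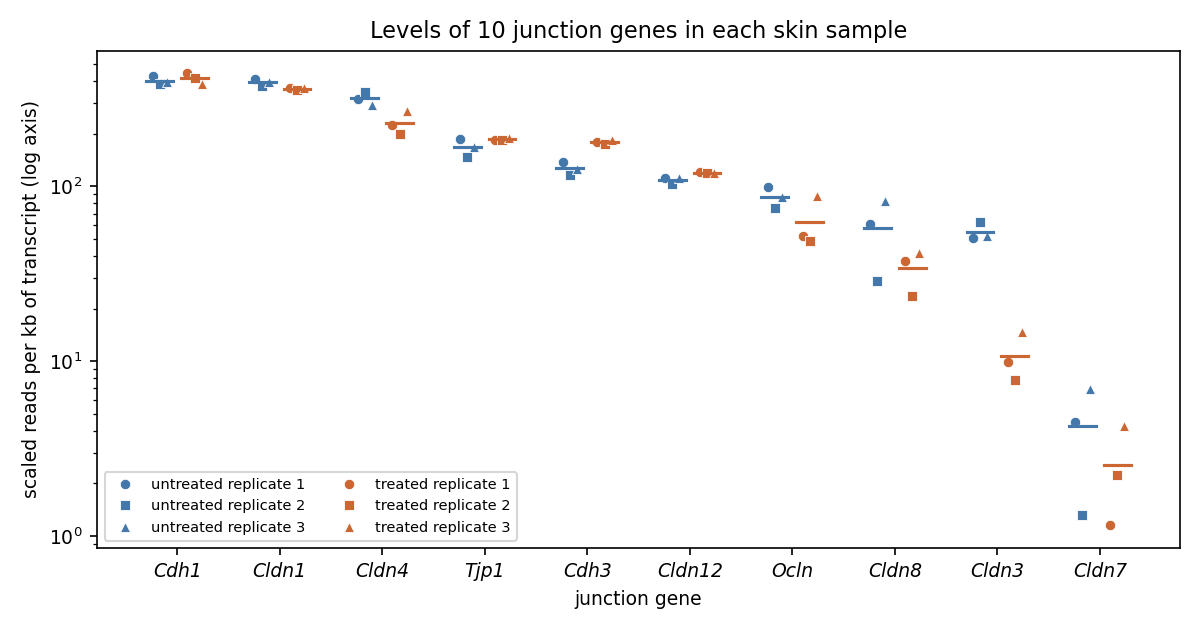
Scaled reads per kb of transcript (log axis) of the 10 junction genes, in order of their untreated mean, for the 3 untreated (blue) and 3 treated (orange) libraries, with a line at each group's mean. Cldn3 separates the groups most, from a mean of 55.1 to 10.8 per kb, and Ocln in treated replicate 3 lies at 88.2, among the untreated values.

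Levels between genes are compared per kb of transcript. In each library 0 of the 17564 genes had above 1 recovered read per base of transcript, with a highest value of 0.86 to 0.923. How reads were counted is not stated, so differences and levels of abundant genes, the epidermal markers included, may be compressed, and the order below holds for these values. In untreated skin E-cadherin was highest at 403 ± 24.0 scaled reads per kb (SD, n = 3), followed by Cldn1 at 395 ± 17.7, and the samples of these neighbours in the order overlapped. Cldn4 came next at 319.6 ± 27.5, then Tjp1 at 168 ± 19.95, Cdh3 at 127 ± 11.2, Cldn12 at 109 ± 4.16 and Ocln at 87.4 ± 11.99, each without overlap with the one before. Cldn8 at 57.5 ± 27.0 overlapped with Ocln above it and with Cldn3 below it, which lay at 55.1 ± 6.32. Cldn7 was lowest at 4.25 ± 2.82. The order of the means was the same in treated skin, where Cdh3 (179.6 ± 4.59 per kb) had come to overlap with Tjp1 (186 ± 2.91). Cldn1 and Cldn4 were thus the main claudin messages of both groups.

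**Figure D2:**
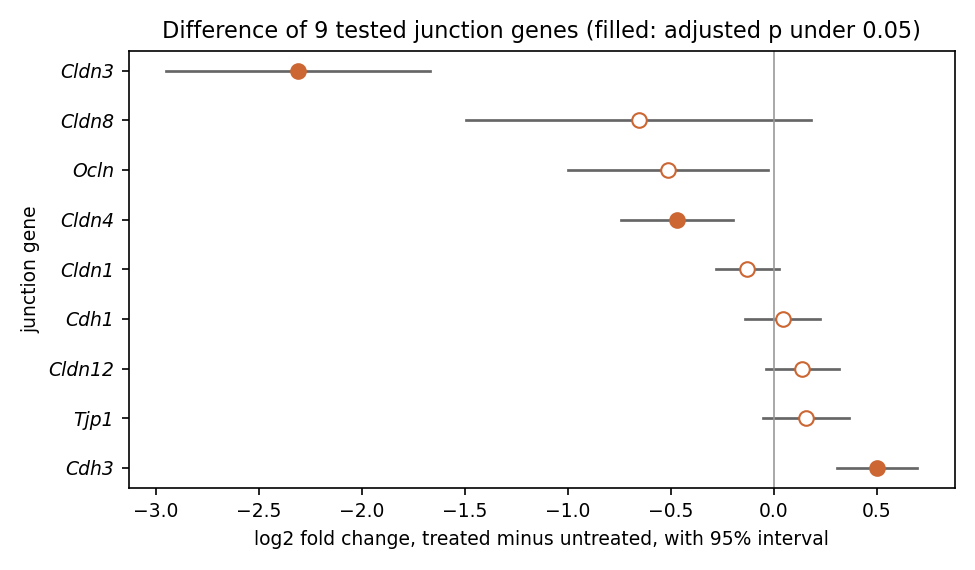
Log2 fold change of the 9 tested junction genes, treated minus untreated, on the log2(scaled reads + 1) scale, with the 95% interval from limma. Filled points have adjusted p under 0.05: Cldn3 at -2.31, Cldn4 at -0.47 and Cdh3 at 0.50.

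Cldn3 encodes a sealing claudin that, like Cldn4, is a receptor for the enterotoxin of Clostridium perfringens. Its values were 63.7, 78.5 and 65.9 scaled reads in untreated and 12.4, 9.80 and 18.5 in treated replicates 1 to 3. Every treated sample lay far below every untreated one, and the groups did not overlap. The mean went from 69.4 ± 7.96 to 13.6 ± 4.46 scaled reads, 5.11-fold lower, with a log2 fold change of -2.31 ± 0.28 SE (limma adjusted p = 0.0026). Behind these values are 177 untreated and 42 treated reads, whose ratio after scaling was 0.204 (95% exact interval 0.142 to 0.286, counting error only). Cldn3 was called lower under each of the 21 alternatives run, with log2 fold changes from -2.54 to -2.02. It was also the junction gene with the widest fall when each library was set on its epidermal markers (-2.19, adjusted p = 0.0097). The last 44 bases of Cldn3 overlap Wbscr25 on the other strand, which had 2.57 to 5.68 scaled reads, and strand use in counting is not given in the sources used here.

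Cldn4, a neighbour of Cldn3 on chromosome 5, seals junctions and is typical of the upper, differentiated layers of the epidermis. It had 571, 630.4 and 532 scaled reads in untreated and 407, 363 and 487 in treated replicates 1 to 3. All treated samples were below all untreated ones, with treated replicate 3 nearest to them. The mean went from 578 ± 49.6 to 419 ± 63.2 scaled reads, 1.38-fold lower (log2 fold change -0.47 ± 0.12 SE, limma adjusted p = 0.0302). This call is fragile: adjusted p was 0.0852 without untreated replicate 1, 0.0975 without untreated replicate 2, 0.081 without treated replicate 1 and 0.104 without treated replicate 2, and the direction was the same in each. Set on the epidermal markers of each library, Cldn4 differed by -0.35 (adjusted p = 0.288), and that centring moved the median of all genes by 0.12 and the calls over all genes to 982 higher and 270 lower from 1439 and 1123. Of 3 markers of Langerhans cells, which extend processes through epidermal tight junctions, 1 was called lower, namely Cd207 (-1.39, limma adjusted p = 0.0044). Over all tested genes 7.23% were called lower by limma. Epcam was at -0.21 (adjusted p = 0.137) and the third, Ltc4s, overlapped between the groups (-0.22, adjusted p = 0.567), and the list summed to 909 to 1041 scaled reads in untreated and 666.5 to 811 in treated skin. Other lists also held lower calls by limma: 5 of 8 sebaceous gland, 3 of 5 adipocyte and 2 of 4 Schwann cell markers. Whether any of these cells had a part in the Cldn3 and Cldn4 values was not tested.

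Cldn4 (mm10 chromosome 5, 134945124 to 134946934, minus strand) and Cldn3 (chromosome 5, 134986214 to 134987476, plus strand) are genes of 1 exon whose bodies lie 39.3 kb apart. Among the 8 other genes of the table within 100 kb of the pair, 7 were tested and 0 were called by limma, with log2 fold changes from -0.20 to 0.39 and adjusted p from 0.214 to 0.934. Of the tested ones, Mettl27, next to Cldn4, differed by 0.16 (adjusted p = 0.478) and Abhd11 by -0.20 (adjusted p = 0.254). Because these neighbours both fell and Cldn1, the most abundant claudin, did not pass, the 250 bases before the start of each are shown as RefSeq gives them on GRCm38.p6, 5′ to 3′ on the gene's strand. Of the 10 genes, 7 matched a RefSeq promoter entry by symbol. Capitals mark the GC box (GGGCGG on either strand, a site of Sp1 family factors), the E-box CAGGTG on either strand (a site that Snail and Zeb repressors can bind) and the TATA box TATAAA on either strand. The windows are chr5:134985964-134986213 (plus strand) for Cldn3, chr5:134946935-134947184 (minus strand) for Cldn4 and chr16:26371840-26372089 (minus strand) for Cldn1.
Cldn3: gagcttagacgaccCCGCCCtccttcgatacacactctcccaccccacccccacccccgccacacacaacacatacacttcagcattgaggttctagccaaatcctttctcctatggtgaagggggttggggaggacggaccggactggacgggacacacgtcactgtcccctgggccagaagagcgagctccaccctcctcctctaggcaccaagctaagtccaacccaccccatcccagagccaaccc
Cldn4: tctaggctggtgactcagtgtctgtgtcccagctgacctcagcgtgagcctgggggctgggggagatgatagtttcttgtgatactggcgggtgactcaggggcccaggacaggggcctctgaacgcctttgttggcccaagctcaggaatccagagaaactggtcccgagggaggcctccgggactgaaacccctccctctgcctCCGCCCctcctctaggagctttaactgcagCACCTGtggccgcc
Cldn1: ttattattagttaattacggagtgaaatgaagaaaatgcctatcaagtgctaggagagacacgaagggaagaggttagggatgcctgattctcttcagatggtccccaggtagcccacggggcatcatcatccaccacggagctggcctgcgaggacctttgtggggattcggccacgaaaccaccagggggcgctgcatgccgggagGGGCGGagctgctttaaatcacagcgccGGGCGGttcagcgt
The window of Cldn3 held 1 GC box, that of Cldn4 1 GC box and 1 E-box, the latter beginning 14 bases before the start, and that of Cldn1 2 GC boxes. No TATA box of those letters was in any of them. Over the 32851 RefSeq promoter windows of the same length, 32.7% held the GC box, 17.2% the E-box and 12.4% the TATA box. G and C made up 60.8% of the Cldn3, 62.0% of the Cldn4 and 55.6% of the Cldn1 window, where the median over all windows was 52.4%. The windows of Ocln, Tjp1, Cldn12 and Cldn7, not shown, held no E-box. These matches describe letters only. By limma, Snai1 differed by 0.51 (adjusted p = 0.0736), Snai2 by 0.26 (0.211), Zeb1 by 0.05 (0.761) and Zeb2 by 0.02 (0.891). Any part of these repressors in the claudin values was not tested.

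Cldn1 (chromosome 16, 26356646 to 26371839, minus strand) had 1334, 1219.6 and 1283 scaled reads in untreated and 1179, 1151 and 1178 in treated replicates 1 to 3. The treated values were tightly grouped just under the lowest untreated one. The log2 fold change of Cldn1 was -0.13 ± 0.067 SE, with a 95% interval of -0.28 to 0.02 (limma adjusted p = 0.231), so a fall of up to 0.28 on the log2 scale lies within the interval. Cldn12, an unusual claudin that lacks the tail by which others bind ZO proteins (chromosome 5, 5505015 to 5514849, minus strand), had 422, 395 and 423 scaled reads in untreated and 457, 455 and 453 in treated skin. All treated values of Cldn12 were above all untreated ones, by a small margin (0.14 ± 0.078 SE, 95% interval -0.04 to 0.32, adjusted p = 0.261).

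Cldn8, a claudin known for blocking cations in the distal kidney tubule, was uneven among the untreated samples. The gene (chromosome 16, 88560826 to 88563183, minus strand) had 144, 68.2 and 194 scaled reads in untreated and 88.2, 55.5 and 98.3 in treated replicates 1 to 3. Untreated replicate 2 lay within the treated range, and the groups overlapped. The log2 fold change was -0.66 ± 0.37 SE (95% interval -1.49 to 0.18, limma adjusted p = 0.263). It was -1.08 (adjusted p = 0.0477) when untreated replicate 2 was dropped and -1.24 (adjusted p = 0.0133) with just the 4 libraries of like depth, whereas without untreated replicate 3 it was -0.33 (adjusted p = 0.594). Cldn7, a claudin of many simple epithelia (chromosome 11, 69964779 to 69967886, plus strand), had 4, 1 and 6 reads in untreated and 1, 2 and 5 in treated replicates 1 to 3. Its 11 reads against 8 gave a ratio of 0.624 with a 95% exact interval of 0.218 to 1.70, so no difference was detectable at this depth.

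**Figure D3:**
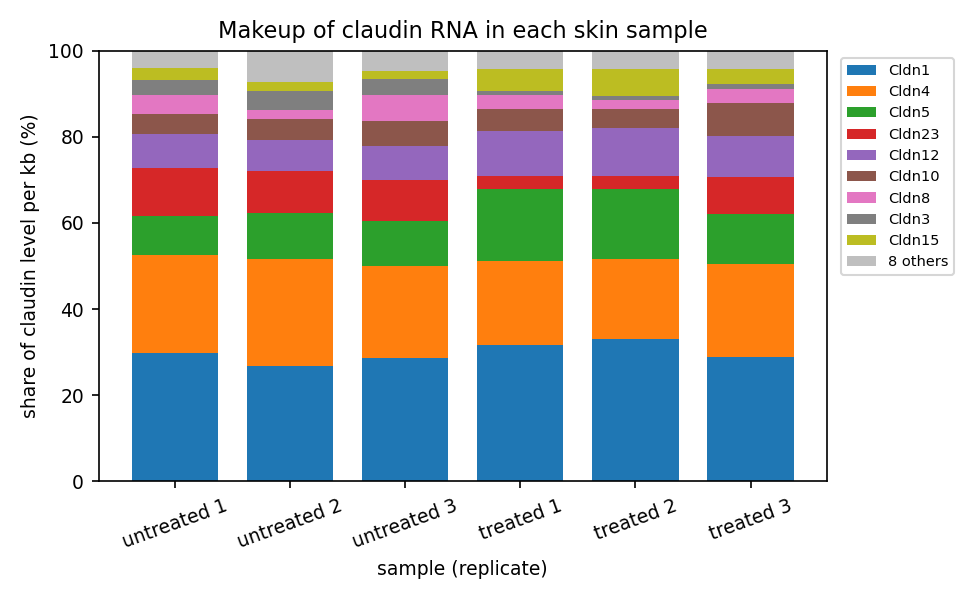
Share of each claudin in the summed claudin level per kb (percent) in the 3 untreated and 3 treated libraries, with the 9 largest claudins in their own colours and 8 others in light grey at the top. Cldn1 and Cldn4 are the 2 widest bands in the group means, and the Cldn3 band narrows from 3.95% to 0.915%.

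Seen as parts of the claudin message as a whole, 17 claudins had a row and their levels per kb summed to 1393 ± 14.0 in untreated and 1163 ± 89.0 in treated skin (SD, n = 3). Cldn1 held 28.4 ± 1.51% of this sum in untreated and 31.2 ± 2.03% in treated skin, and Cldn4 held 22.9 ± 1.75% and 19.9 ± 1.46%. The Cldn3 share went from 3.95 ± 0.413% to 0.915 ± 0.229%. Cldn12 held 7.81 ± 0.375% and 10.3 ± 0.81%, and Cldn8 4.14 ± 1.97% and 2.92 ± 0.638%. Shares add up to the whole, so a lower share of one claudin raises the rest, and they were not tested. Against its chromosome neighbour, Cldn3 stood at 0.172 ± 0.0105 of the Cldn4 level per kb in untreated and 0.0457 ± 0.00799 in treated skin. Cldn4 stood at 0.811 ± 0.0994 of Cldn1 in untreated and 0.64 ± 0.0905 in treated skin. The groups did not overlap in either ratio, and each had an exact two-sided permutation p of 0.1 (adjusted p = 0.1 over 3 ratios), the smallest that 3 samples against 3 can give. For Cldn4 over Cldn1 they nearly touched, with a highest treated value of 0.7402 and a lowest untreated value of 0.7417. For Cldn3 over Cldn4 these values were 0.0544 and 0.160.

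Of the 11 claudins outside the set of 6 that had a row, 7 were tested, 1 was called higher and 1 lower by limma, where 9.26% and 7.23% of all genes were called. Cldn23 fell from 259 ± 20.8 to 108 ± 78.0 scaled reads (-1.47 ± 0.39 SE, adjusted p = 0.0332). Its treated values were 66.7, 59.9 and 198 in replicates 1 to 3, so treated replicate 3 stood nearest to the lowest untreated value of 242. Cldn23 was not called by DESeq2 (adjusted p = 0.0902) or edgeR (adjusted p = 0.0611), nor without untreated replicate 1, 2 or 3 (adjusted p = 0.0996, 0.0861 and 0.0656) or treated replicate 1 or 2 (0.102 for both). Cldn15, which forms a sodium pore in the gut, rose from 58.5 ± 11.6 to 106 ± 23.7 scaled reads (0.84 ± 0.23 SE, limma adjusted p = 0.0374). Cldn15 was not called by edgeR (adjusted p = 0.0505), nor without untreated replicate 1, 2 or 3 (adjusted p = 0.052, 0.0975 and 0.0968) or treated replicate 1 or 2 (0.101 and 0.141). Cldn5, the claudin of blood vessel endothelium, had a mean of 140.6 per kb in untreated skin, about level with Cldn23 at 140.3, and their libraries overlapped. It differed by 0.29 (limma adjusted p = 0.18). Of 6 endothelial markers 2 were called higher by limma, Tie1 (0.74, adjusted p = 0.0077) and Emcn (0.46, adjusted p = 0.0452). Emcn had an adjusted p under 0.05 in 8 of the 21 alternatives, with values up to 0.142. Among those 8 is the main fit at the stricter threshold of 0.01, which Emcn did not pass. The edgeR and DESeq2 tests each called 1 of the 6.

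Occludin, the membrane partner of the claudins, did not pass over the 6 libraries. Ocln (chromosome 13, 100496505 to 100552718, minus strand) had 405, 307 and 358 scaled reads in untreated and 214, 198 and 360.5 in treated replicates 1 to 3. Treated replicates 1 and 2 were below every untreated sample, and treated replicate 3 was inside the untreated range, so the groups overlapped. The log2 fold change of Ocln was -0.51 ± 0.22 SE (95% interval -1.00 to -0.03 before adjustment, limma adjusted p = 0.14). Without treated replicate 3 it was -0.78 (adjusted p = 0.0065), and -0.88 when the 4 libraries of like depth were used (adjusted p = 0.0023). Treated replicate 3 also had the greatest depth and the lowest neutrophil marker sum of the treated libraries, 778 scaled reads beside 2617 and 2179. Its sum of inner root sheath and hair matrix markers was the highest of the treated libraries (5713 beside 2954 and 1469). Its epidermal marker sum was the lowest (13214 beside 17527 and 16194). The part of any of these in the Ocln values was not tested.

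Tjp1, the ZO-1 scaffold under both kinds of junction (chromosome 7, 65296165 to 65371244, minus strand), had 1286, 1012 and 1148 scaled reads in untreated and 1266, 1260.05 and 1297 in treated replicates 1 to 3. The treated samples were close to each other and to the highest untreated sample, and the groups overlapped. Its log2 fold change was 0.16 ± 0.091 SE with a 95% interval of -0.05 to 0.36 (limma adjusted p = 0.279).

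Of 24 other tight junction membrane and scaffold genes tested, 0 were called higher, 5 lower and 19 not at all by limma, beside 9.26% higher and 7.23% lower over all genes, and 2 were higher and 9 lower at an unadjusted p under 0.05. DESeq2 called 0 higher and 6 lower, and edgeR 0 and 5. The median log2 fold change was -0.15, beside 0.03 over all genes. The 5 lower calls became 1 with epidermal centring, 2 without untreated replicate 1, 2 without treated replicate 2, and 9 both without treated replicate 3 and with the 4 libraries of like depth. Cgn, cingulin, a plaque protein that links ZO proteins to actomyosin, fell from 547 ± 137 to 207 ± 76.8 scaled reads (-1.43 ± 0.25 SE, limma adjusted p = 0.0083), and was called under each of the 21 alternatives. The angiomotin genes Amot and Amotl1, whose products bind the Hippo pathway factor YAP at junctions, fell by 0.65 and 0.40 on the log2 scale (adjusted p = 0.0106 and 0.0131). Lsr, angulin-1, which marks the corners where 3 cells meet, fell from 627 ± 48.5 to 459 ± 30.6 (-0.45, adjusted p = 0.0137), and Tjp3, the ZO-3 scaffold, from 485 ± 27.8 to 319 ± 97.3 (-0.64, adjusted p = 0.0439). Amotl1 and Lsr were not called without untreated replicate 1 (adjusted p = 0.0514 and 0.059) or treated replicate 2 (0.0504 and 0.0585). Tjp3 was not called without any one of 5 libraries, with adjusted p of 0.122, 0.0854 and 0.101 without untreated replicates 1, 2 and 3 and 0.119 and 0.129 without treated replicates 1 and 2, and edgeR gave 0.051. With each library set on its epidermal markers, Cgn alone of the 24 was called. The most abundant per kb in untreated skin was Ybx3 (572 per kb, -0.32, adjusted p = 0.0672), a ZO-1 partner that also binds nucleic acid.

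**Figure D4:**
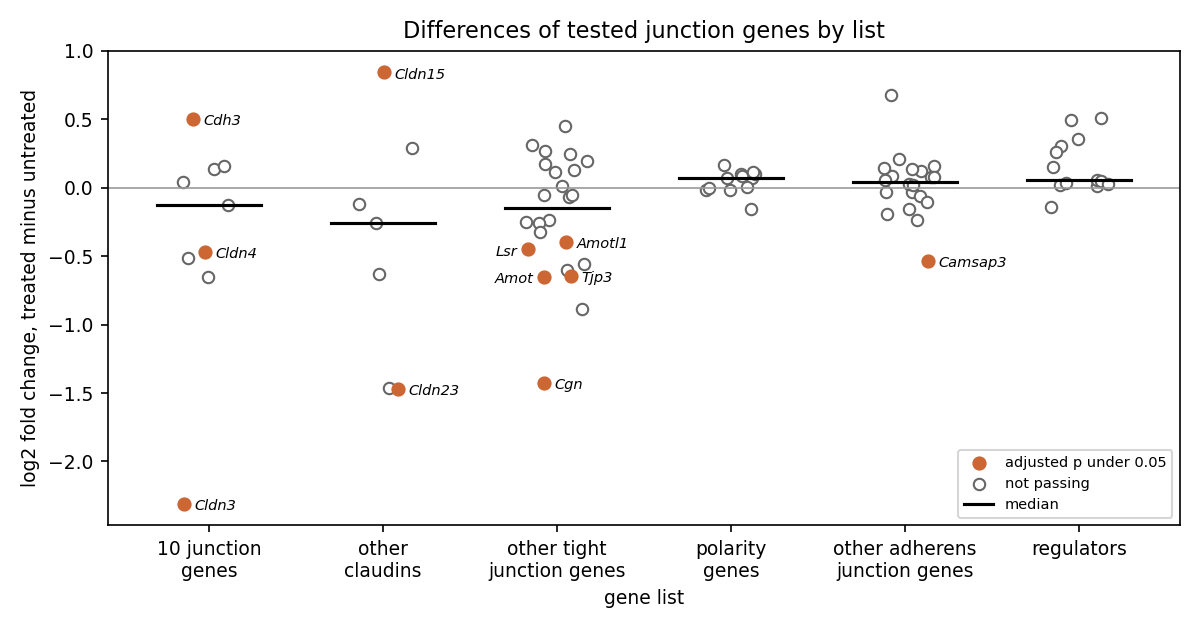
Log2 fold change, treated minus untreated, of each tested gene in the set of 10 and in 5 related lists, with the median as a line and genes at adjusted p under 0.05 filled and named. The called genes other than Cdh3 and Cldn15 lie below 0, and no polarity gene or regulator is filled.

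Among the cadherins, E-cadherin, the main adhesion protein of all epidermal layers, had 1897, 1694 and 1742 scaled reads in untreated and 1961, 1841 and 1697 in treated replicates 1 to 3. The groups overlapped. Its log2 fold change was 0.04 ± 0.081 SE with a 95% interval of -0.14 to 0.23 (limma adjusted p = 0.762). Cdh1 and Cldn1 had the most reads per base of transcript in the set, 0.298 to 0.458 and 0.293 to 0.433. With the trend of each library on reads per base removed, Cdh1 differed by 0.16 (adjusted p = 0.213), Cldn1 by -0.02 (0.893) and Cldn4 by -0.41 (0.0659).

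P-cadherin is confined in normal skin to basal cells of the epidermis and to the hair follicle, where its level is high in the matrix. Cdh3 had 556, 466 and 508 scaled reads in untreated and 718, 705 and 741 in treated replicates 1 to 3. The treated samples were close together and all above the untreated ones. The mean went from 509.9 ± 45.2 to 721 ± 18.4 scaled reads, with a log2 fold change of 0.50 ± 0.085 SE (limma adjusted p = 0.0075). Cdh3 was called higher under each of the 21 alternatives run, with log2 fold changes from 0.42 to 0.62 and adjusted p up to 0.042. The ratio of Cdh3 to Cdh1 per kb was 0.322, 0.302 and 0.32 in untreated and 0.402, 0.421 and 0.48 in treated replicates 1 to 3. Means of this ratio were 0.315 ± 0.0111 and 0.434 ± 0.0405, and the groups did not overlap (exact two-sided permutation p = 0.1, adjusted p = 0.1 over 3 ratios, the smallest possible).

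Some markers of hair growth and of the cell cycle were called higher beside Cdh3. Of the 11 markers of inner root sheath and hair matrix, 6 were called higher and 5 were not called, where 9.26% of all genes were called higher. The 6 were Krt25, Krt27, Krt28, Krt71, Krt73 and Tchh. The 5 not called were Msx2, Hoxc13, Foxn1, Lef1 and Dlx3, with limma adjusted p from 0.0865 to 0.219. All 11 log2 fold changes were above 0. Those called include Krt25 (6.90, adjusted p = 8.76e-04), which had between 1.10 and 1.29 scaled reads in untreated skin so that its size is uncertain, and Krt71 (4.48, adjusted p = 0.0032). The sum over this list in treated replicates 1 to 3 was 2954, 1469 and 5713 scaled reads, a wide spread. Cdh3 had 718, 705 and 741 scaled reads in the same libraries. Of 8 cell cycle markers 3 were called higher and 5 were not called, with Top2a at 0.53 (adjusted p = 0.0111) and Mki67 at 0.57 (adjusted p = 0.0226), and the list summed to 4121 to 4791 scaled reads in untreated and 5606 to 7110.4 in treated skin. The basal and bulge keratin Krt15 was lower (-0.45, adjusted p = 0.0086), the epidermal marker with the smallest p. The part of these cells in the Cdh3 value was not tested.

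Cdh3 (mm10 chromosome 8, 106510852 to 106556911) and Cdh1 (chromosome 8, 106603350 to 106670247) follow each other on the plus strand with 46.4 kb between them. Of the other 2 genes of the table within 100 kb, Zfp90, which precedes Cdh3, was higher as well (0.63, limma adjusted p = 0.0136), and Tango6, which follows Cdh1, differed by -0.04 (adjusted p = 0.9). These neighbours were looked up after the values of the cadherins were seen.

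Of 20 other adherens junction genes tested, among them the partners of the cadherins, 0 were called higher and 1 lower by limma, beside 9.26% and 7.23% of all genes, with 2 higher and 2 lower at an unadjusted p under 0.05. DESeq2 called 1 higher and 2 lower, and edgeR 0 and 1. The median was 0.04. Beta-catenin (Ctnnb1), which binds the cadherin tail, was the most abundant per kb and went from 2023 ± 50.8 to 1981 ± 159 scaled reads (-0.03, adjusted p = 0.814), and plakoglobin (Jup) from 2232 ± 80.1 to 2149.6 ± 255 (-0.06, adjusted p = 0.71). Camsap3, which anchors microtubule minus ends at the adherens belt, fell from 1009 ± 105 to 702 ± 128 scaled reads (-0.53 ± 0.13 SE, limma adjusted p = 0.0273). Camsap3 was not called without untreated replicate 1 or 3 (adjusted p = 0.095 and 0.0691) or treated replicate 1 or 2 (0.0827 and 0.0936), nor set on the epidermal markers (0.27).

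Polarity genes, which place the junctional belt along the cell's side, gave no call: of 12 tested, 0 were higher and 0 lower by limma, by DESeq2 and by edgeR, and 0 had an unadjusted p under 0.05. Their median log2 fold change was 0.07. The most abundant per kb, Pard6g and Prkci, differed by 0.11 (adjusted p = 0.428) and 0.17 (adjusted p = 0.215). Of 13 regulators of epithelial junction genes, 0 were called by limma and by edgeR, DESeq2 called 1 higher, and 3 were higher and 0 lower at an unadjusted p under 0.05. The 3 were Grhl2 (0.49, limma adjusted p = 0.0559), Snai1 (0.51, 0.0736) and Twist2 (0.36, 0.105). The median was 0.05, and 12 of the 13 log2 fold changes were above 0, beside 8530 of all 15534 tested genes. Grhl1 and Esrp1, an activator of epithelial genes and an epithelial splicing factor, were the most abundant and differed by -0.14 (adjusted p = 0.22) and 0.01 (adjusted p = 0.941). Over the 5 related lists together, 76 of 89 entries were tested, 1 was higher and 7 were lower, beside the 9.26% and 7.23% of all tested genes given above.

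By the root mean square difference of log2 values over the 6 libraries, each gene centred on its mean, the profile most like that of Cldn3 among 13765 genes was Paqr9 (0.14), followed by Esrrg (0.16) and Wfdc3 (0.21). Paqr9 had 102, 99.1 and 85.2 scaled reads in untreated and 20.4, 15.3 and 26.1 in treated replicates 1 to 3, and Esrrg 165, 214 and 158 against 28.3, 31.6 and 42.9. For Cdh3, looked up after its values were seen, the nearest was Bnc1 (0.04). Bnc1, basonuclin, a zinc finger protein of basal keratinocytes and follicles, had 492, 436 and 462 scaled reads in untreated and 694, 658 and 675 in treated skin.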

How the data were processed

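RNA of 6 whole skin samples was made into stranded mRNA libraries, per the labels' protocols. The submitters' processing notes name STAR, DESeq2, bcl2fastq 2.20.0.422 and the mm10 build. Which read counter was used is not given in the sources used here. In 1 table, the authors deposited a scaled signal for every gene and library, along with transcript lengths and their own log2 fold changes and p-values. The design foresaw scaled values. In each column 100.0% of values lay within 0.1 of a whole multiple of 1 read, and these multiples served as recovered reads, 4928245 to 7545567 per library.

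The 15534 genes that pass filterByExpr of edgeR (at least 10 reads, 15 in total) went into limma 3.58.1 (R 4.3.3) as log2(value + 1), with group alone in the model, a mean-dependent spread and Benjamini-Hochberg adjusted p-values. This scale understates the change of low genes. Alternatives were edgeR 4.0.16 and DESeq2 1.42.0 on recovered reads (1249 higher and 1204 lower genes, and 1247 and 1336), limma-voom, other pseudocounts (0.5 and 5), filters and scalings, a stricter threshold, removal of the trend with reads per base, the replicate number as a block, the 4 libraries of like depth, each library left out and the authors' comparison. Intervals at 95% cover counting error only where they rest on reads. Tested on simulated data in which 200 of 15534 genes differed, limma found 92% of 3-fold and 43% of 1.5-fold differences, with 8 calls among 15334 genes without one. The differing genes were drawn above a floor on total reads, so these rates do not cover genes of low count. A far smaller share of genes differed there than the 16.5% called in the data.

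The members and the lists were chosen with earlier results of these data known. Named are all 10 members, called list genes (up to 5 a direction, otherwise 3), the 2 most abundant per kb of each list, 2 markers a list of smallest p where a result touches them, and the 3 profiles nearest to Cldn3, the member of smallest p and largest change. Named as well, after the values were seen, are all markers of inner root sheath and hair matrix, Grhl2, Twist2 and the Snail and Zeb genes. Of the list entries, 9 had no row and were not analysed here. Promoter sequences are RefSeq's for GRCm38.p6. Plots used Python 3.11.15 and matplotlib 3.10.9.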

Additional observations from a re-analysis of the deposited data

How the results depend on the processing

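Of 21 alternatives, all kept 1 junction gene called higher, Cdh3, and Cldn3 among those called lower. The 2 genes called lower became 1 when each library was set on its epidermal markers, with the trend on reads per base removed, at adjusted p under 0.01 and without a trend in the spread, and 4 in the 4 libraries of like depth (Cldn3, Cldn4, Cldn8 and Ocln); leaving out single libraries gave 1 to 3. In the single-gene values 1 sign changed, Cdh1, which ranged from -0.0065 (without treated replicate 1, adjusted p = 0.969) to 0.0975 when single libraries were left out. Across the 5 related lists, the 1 gene called higher became 0 with edgeR, limma-voom, the reads per base trend removed, the stricter threshold or no trend in the spread, 3 with DESeq2 and in the authors' deposited comparison, 4 with the replicate block and 5 in the 4 libraries of like depth, and was 0 to 2 without single libraries. The 7 called lower became 1 set on the epidermal markers and 1 at adjusted p under 0.01, 4 without a trend in the spread and 12 in the 4 libraries of like depth, and were 2 to 12 without single libraries. The cause was not tested. The groups share replicate numbers, but same-numbered libraries correlated at -0.09, -0.05 and 0.05 in their deviations from the group means, so the numbers are not taken as pairs; with the replicate block the counts were 1 higher and 2 lower junction genes. Over all genes, 1439 higher and 1123 lower calls became 691 and 545 when untreated replicate 1 was left out, 761 and 647 for untreated replicate 2, 859 and 623 for treated replicate 1, 610 and 529 for treated replicate 2, 922 and 640 without a trend in the spread, 362 and 288 at adjusted p under 0.01 and 982 and 270 set on the epidermal markers. Depth limits Cldn7, with 11 and 8 reads.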
